A study of Mus musculus with 2 samples.

Results

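The major urinary proteins are a family of near-identical mouse genes and pseudogenes that lie side by side on chromosome 4, and their transcripts were compared here in liver between S1a/Ctrl and S1a/ETP groups. The members are every gene of the table whose symbol is *Mup* followed by a number or by -ps, 51 of 35275 genes. Of these, 21 are protein-coding and 30 are pseudogenes. The coding genes were divided into 6 divergent outer genes (*Mup3*, *Mup4*, *Mup5*, *Mup6*, *Mup20* and *Mup21*) and the remaining 15, which are called central copies. On chromosome 4 lie 50 members, from *Mup4* to *Mup21* (mm10 chr4:59956804-62150863, 2.19 Mb). *Mup-ps22* lies apart on chromosome 11.

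S1a/Ctrl mice carried the Alb-Cre, Rosa rtTA and S1a alleles, the last a transgene for human SREBP1a under the rat PEPCK promoter that gives a fatty liver. S1a/ETP mice carried the same alleles and TRE-ETP in addition, so that doxycycline switched on endotrophin, a peptide cut from the carboxy terminus of the collagen VI alpha 3 protein, in cells with albumin-Cre. All were male mice labelled as FVB and aged 12 months, fed doxycycline at 200 mg/kg for 10 months in either group. Each group was 1 library made from the RNA of 3 mice, so no spread between mice was measured, no p-value could be given, and a difference may come from any number of the pooled mice.

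Major urinary proteins are small lipocalins, barrel-shaped carriers of hydrophobic ligands. Hepatocytes secrete them into blood, they pass into urine, and there they bind and slowly release volatile pheromones. Male mouse liver makes more of them than female liver, under the control of pulsed growth hormone acting through STAT5b, with thyroid hormone and glucocorticoid also needed for full expression. *Mup20* encodes darcin, the male pheromone protein that attracts females, while *Mup4* and *Mup5* are known from nasal, lacrimal and salivary glands rather than from liver.

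How far the copies can be told apart is best seen in their sequences. Below is the stretch of 60 coding bases that varied most among the 21 coding members, from the transcripts of GENCODE M21 (build GRCm38, the same as mm10). All of the genes lie on chromosome 4, the stretch is exonic and coding, and all but *Mup6* are read from the minus strand. Capitals mark each base that differs from the commonest base among the central copies. It starts at coding base 212 in *Mup9*, *Mup7*, *Mup17*, *Mup1* and *Mup5*, at 215 in *Mup20* and *Mup21*, at 224 in *Mup3*, at 206 in *Mup4* and at 209 in *Mup6*.
Mup3: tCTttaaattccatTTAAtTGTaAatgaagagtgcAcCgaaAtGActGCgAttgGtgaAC
Mup21: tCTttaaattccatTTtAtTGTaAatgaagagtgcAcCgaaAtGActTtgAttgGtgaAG
Mup20: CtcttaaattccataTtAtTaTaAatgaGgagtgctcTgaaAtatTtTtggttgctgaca
Mup4: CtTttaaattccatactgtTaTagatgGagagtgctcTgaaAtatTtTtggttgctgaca
Mup5: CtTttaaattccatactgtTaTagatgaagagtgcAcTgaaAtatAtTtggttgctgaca
Mup6: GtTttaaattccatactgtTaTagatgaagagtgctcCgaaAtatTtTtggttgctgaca
Mup9: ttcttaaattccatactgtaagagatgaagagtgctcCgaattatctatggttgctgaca
Mup7: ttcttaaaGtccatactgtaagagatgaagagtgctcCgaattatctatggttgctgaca
Mup17: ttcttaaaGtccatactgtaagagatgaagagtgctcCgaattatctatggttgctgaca
Mup1: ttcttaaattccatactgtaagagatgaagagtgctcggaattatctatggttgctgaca

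*Mup3* differed from the central consensus at 21 of these bases, *Mup21* at 19, *Mup20* at 11 and the central copies at 0 to 2. Over the whole coding sequence, the 105 pairs of central copies were 98.3% to 99.8% identical, with a median of 99.1%. The 15 pairs of outer genes were 82.3% to 94.8% identical. *Mup3* and *Mup21* were the closest pair of outer genes, with 29 differences, and *Mup20* was closest to the central copy *Mup11* at 91.4%. *Mup9* and *Mup19* differed at 1 coding base. A read of 100 bases can be placed on 1 gene only where its sequence occurs in no other gene's transcripts, and such stretches made up 97.8% of *Mup3*, 95.5% of *Mup21* and 61.2% of *Mup20*. In the central copies the same share ran from 0% in *Mup19* to 44.3% in *Mup1*, with a median of 24.3%. How reads that fit several copies were assigned is not given in the sources used here, and the mice were FVB while the reference cluster comes from C57BL/6J. The value of a single central copy is therefore uncertain, as is that of many pseudogenes (median share 55.6%), and outer genes are firmer (median 98.2%). Summed values are firmer only if shared reads were kept and split among copies. If shared reads were dropped, central copies would have lost a larger part of theirs than outer genes. Family totals and shares by class carry that limit, which counting intervals do not cover.

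The authors deposited FPKM, fragments scaled to gene length and library depth. Multiplying length and depth back in gave whole reads for 100% of the values, to within 0.01 reads, and put the depths at 19245078 (S1a/Ctrl) and 14538808 reads (S1a/ETP). Ratios below are log2 of FPKM in S1a/ETP over S1a/Ctrl, with 0.1 FPKM added to both, where the mean reached 0.1 FPKM. Square brackets hold the 95% exact binomial (Clopper-Pearson) interval, which covers counting error only. Where a pair of values is given, S1a/Ctrl comes first. Depth differed between the libraries, and a gene at 0 can hold up to 3 reads.

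Transcripts of the family were lower in S1a/ETP liver. All members together summed to 85462 reads in the S1a/Ctrl library and 21556 in the S1a/ETP library. This was 0.444% and 0.148% of all reads, a 3.0-fold lower level (log2 −1.58 [−1.60, −1.56]). Summed FPKM gave 4757 and 1571. In bulk tissue, fewer cells that make these transcripts and less transcript per cell cannot be told apart. Hepatocyte markers were mixed. Of 14, 2 were at least 2-fold lower and 0 higher, with a median log2 ratio of −0.15, where 6.25% of all genes were at least 2-fold lower. The 2 were *Serpina1c* at −1.85 and *Serpina1a* at −1.08, which encode forms of alpha-1-antitrypsin, while *Alb*, which encodes albumin, stood at −0.02 and the apolipoprotein genes *Apoa1* and *Apoa2* at −0.47 and −0.50.

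Markers of skeletal muscle and of neutrophils also differed between the libraries, in opposite directions. Skeletal muscle markers summed to 4495 and 15 reads, with 16 of 16 that passed at least 2-fold lower and 12 of 18 at 0 in S1a/ETP. *Tnnc2*, 1 of those 12, was at 0 in both libraries. Neutrophil markers had 85 and 3463 reads, with 11 of 11 that passed at least 2-fold higher. Over all genes that passed, 6.25% were at least 2-fold lower and 6.42% at least 2-fold higher. Markers of salivary, lacrimal and nasal glands, which also express *Mup* genes, were at 0 in both libraries for 13 of 14, the other being *Amy1*. The part of muscle and neutrophil RNA in the *Mup* values was not tested.

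Reads were found for 31 members, and 20 were at 0 in both libraries. The filter was passed by 29, of which 21 were at least 2-fold lower, 0 at least 2-fold higher and 8 within 2-fold. Among all 16042 genes that passed, 6.25% were at least 2-fold lower and 6.42% at least 2-fold higher. The median ratio of the 29 members was −1.91, beside 0.03 over all genes, and all 29 lay below 0, or 25 of 29 when the libraries were scaled to TPM. The study itself names 7 members as changed on these same libraries (*Mup1*, *Mup7*, *Mup9*, *Mup12*, *Mup17*, *Mup21* and *Mup-ps2*), so those are not independent evidence of direction. The paper also reports quantitative PCR checks of its sequencing results and lower Mup protein in S1a/ETP livers, which were not examined here. The members that the study does not name come from the same libraries, and central copies among them may share reads with named ones. They are thus not independent either. Without the named 7, the other 44 members summed to a log2 ratio of −1.41 [−1.43, −1.39], and 14 of the 22 that passed were at least 2-fold lower. *Mup3* alone gave 63356 of their 71255 reads in S1a/Ctrl. At 0 reads in S1a/ETP alone were 8 members, and at 0 in S1a/Ctrl alone were 0. Among all 35275 genes, 17710 were at 0 in S1a/ETP and 17166 in S1a/Ctrl, of which 16047 were at 0 in both. The 8 members had only 1 to 11 reads in S1a/Ctrl, and the S1a/ETP library was shallower, so their count says little. Members at 0 in S1a/ETP that passed the filter did so through S1a/Ctrl alone, so they could only be counted as lower. The count of lower members thus rests in part on scarce transcripts. At a filter of 1 FPKM it was 12, beside 1.84% of all genes passing it, and with at least 20 reads in the 2 libraries together it was 13 of 19.

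**Figure D1:**
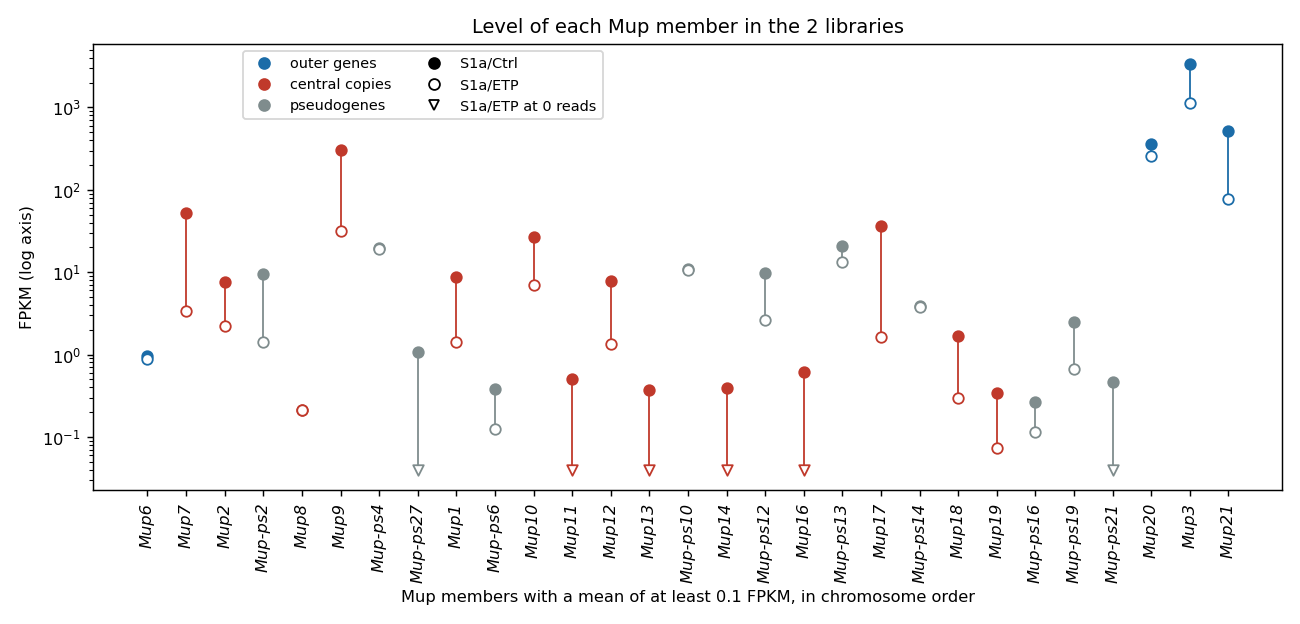
FPKM on a log axis of the 29 members that passed the filter, in chromosome order, in S1a/Ctrl (filled) and S1a/ETP (open), with downward triangles at the lower edge for members at 0 reads in S1a/ETP. *Mup3* stands highest in both libraries (3346 and 1135 FPKM), most central copies fall by long lines, and the symbols of *Mup-ps4*, *Mup-ps10* and *Mup-ps14* nearly coincide.

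The outer genes carried most of the family's counted reads and differed widely among themselves. *Mup3* gave 63356 reads (S1a/Ctrl) and 16242 reads (S1a/ETP), and its level fell from 3346 to 1135 FPKM (log2 −1.56 [−1.58, −1.53]), which moved it from rank 16 to rank 49 among all genes by FPKM. It made up about the same share of the family in both libraries, 74.1% [73.8, 74.4] of *Mup* reads (S1a/Ctrl) and 75.3% [74.8, 75.9] (S1a/ETP). *Mup21*, its closest relative in sequence, had 6754 and 756 reads, or 518 and 76.8 FPKM. That was 6.75-fold lower (log2 −2.75 [−2.86, −2.64]), and its rank went from 126 to 854. The intervals of *Mup3* and *Mup21* do not overlap, although 95.5% or more of the stretches of both are found in no other gene.

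*Mup20*, the gene of darcin, changed least among the abundant members. It gave 6478 and 3483 reads, or 363 and 258 FPKM (log2 −0.49 [−0.55, −0.43]), and did not reach 2-fold. In S1a/Ctrl it was less abundant than *Mup21* by FPKM, and in S1a/ETP more abundant. Its share of the family's reads was 7.58% [7.40, 7.76] (S1a/Ctrl) and 16.2% [15.7, 16.7] (S1a/ETP), while that of *Mup21* was 7.90% [7.72, 8.09] and 3.51% [3.27, 3.76].

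The other 3 outer genes were nearly silent. *Mup4* and *Mup5* were at 0 reads in both libraries, which allows up to 0.169 and 0.224 FPKM for *Mup4*. Their sequences are distinct, with 100% and 98.7% of stretches found in no other gene, so that reads matching the reference copies could have been assigned. *Mup6* had 17 and 12 reads, or 0.954 and 0.891 FPKM (log2 −0.09 [−1.15, 0.95]), and whether it differed was not detectable at this depth. Without *Mup3*, the outer genes summed to a log2 ratio of −1.24 [−1.29, −1.19], and with it to −1.50 [−1.52, −1.48].

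The central copies fell furthest. Together they gave 8040 reads (S1a/Ctrl) and 658 reads (S1a/ETP), which per depth was 9.23-fold lower (log2 −3.21 [−3.32, −3.09]). This interval does not overlap that of the outer genes or of the pseudogenes. Of the 14 copies that passed, 13 were at least 2-fold lower, with a median of −2.39. Of these 13, 5 (*Mup11*, *Mup13*, *Mup14*, *Mup16* and *Mup19*) had 0 or 1 reads in S1a/ETP and depend on the pseudocount, and with a pseudocount of 1 FPKM the count was 8. *Mup11*, *Mup13*, *Mup14* and *Mup16*, at 0 in S1a/ETP, passed the filter through S1a/Ctrl alone. They could only be counted as lower, and the median includes them. The copies shrank from 9.41% [9.21, 9.61] to 3.05% [2.83, 3.29] of the family's reads, while the outer genes rose from 89.6% [89.4, 89.8] to 95.1% [94.8, 95.4].

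*Mup9* was the most abundant central copy. It had 5367 and 416 reads, or 307 and 31.5 FPKM (log2 −3.28 [−3.43, −3.14]), and its rank went from 241 to 1817. *Mup17* had the lowest ratio of any member, with 649 and 22 reads, or 36.4 and 1.63 FPKM (log2 −4.40 [−5.03, −3.81]). *Mup7* followed, with 1045 and 50 reads, or 52.6 and 3.33 FPKM (log2 −3.94 [−4.37, −3.54]). These 3 copies were also the most abundant central copies in S1a/Ctrl, and the study names all of them.

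Other central copies fell less. *Mup10* had 476 and 95 reads, or 26.7 and 7.05 FPKM (log2 −1.91 [−2.23, −1.59]). *Mup2* had 134 and 30 reads, or 7.51 and 2.23 FPKM (log2 −1.71 [−2.30, −1.15]). The intervals of both lie above those of *Mup7*, *Mup9* and *Mup17* as counted, though the intervals do not cover how reads that fit several copies were assigned. *Mup12*, with 140 and 18 reads (log2 −2.47 [−3.20, −1.79]), and *Mup1*, with 155 and 19 reads (log2 −2.54 [−3.25, −1.88]), lay between, with intervals that reached those of *Mup9* and *Mup10*. *Mup18* had 30 and 4 reads (log2 −2.17 [−3.40, −0.90]).

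Scarce copies had too few reads for a firm ratio. *Mup16* had 11 and 0 reads, 2.77-fold lower if S1a/ETP is set to the floor of 3 reads. On the same basis *Mup11*, with 9 and 0 reads, was 2.27-fold lower, and *Mup13* and *Mup14*, each with 7 and 0, were 1.76-fold lower. These folds take the S1a/Ctrl count as exact. Counting intervals without a pseudocount reached up to log2 −0.92 for *Mup16*, −0.58 for *Mup11* and −0.12 for *Mup13* and *Mup14*. *Mup19* had 6 and 1 reads, and *Mup8* had 4 and 3. *Mup15* was at 0 in both libraries, but only 2.66% of its stretches are found in no other gene.

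**Figure D2:**
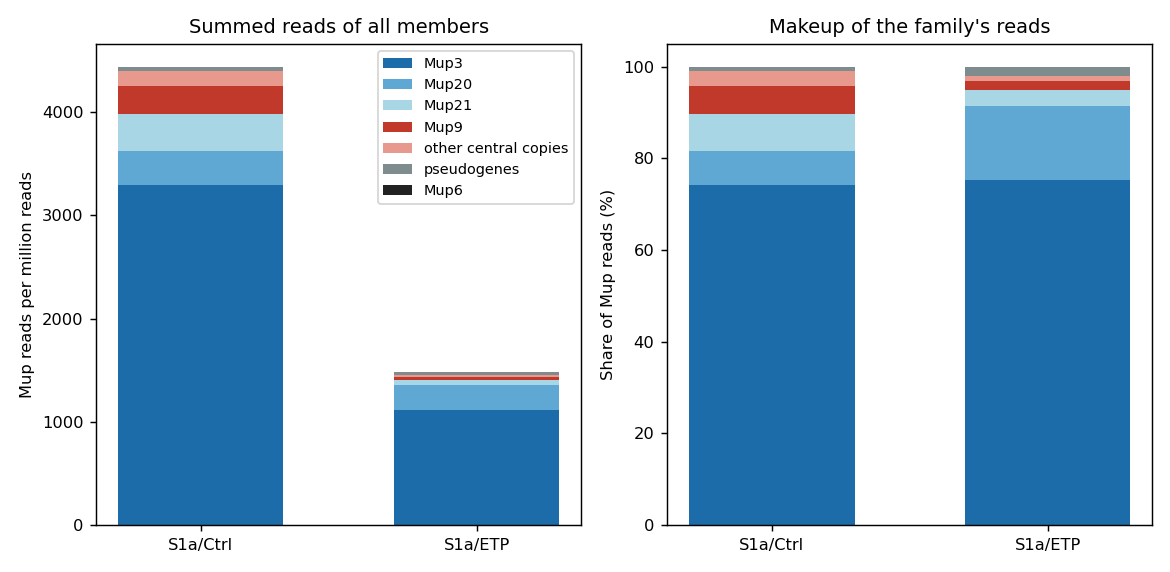
Left, reads of all members scaled to library depth, stacked by gene or class, in S1a/Ctrl and S1a/ETP. Right, the same as a percentage of the family's reads, where *Mup3* keeps about the same share, *Mup20* grows from 7.58% to 16.2% and the central copies, *Mup9* included, shrink from 9.41% to 3.05%.

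By summed reads pseudogenes changed least as a class, and they were split among themselves. The 30 pseudogenes gave 817 reads (S1a/Ctrl) and 405 reads (S1a/ETP) (log2 −0.61 [−0.78, −0.43]). Reads were found for 13, and 17 were at 0 in both libraries. Of the 11 that passed the filter, 6 were at least 2-fold lower, beside 6.25% of all genes, and the median was −1.09. They took 0.956% [0.892, 1.02] of the family's reads in S1a/Ctrl and 1.88% [1.70, 2.07] of those in S1a/ETP.

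Most pseudogene reads came from 4 loci that stayed within 2-fold, a grouping made after the values were seen. *Mup-ps4* had 201 and 148 reads, or 19.4 and 18.9 FPKM (log2 −0.04 [−0.35, 0.28]). *Mup-ps10* had 118 and 85 reads, or 11.03 and 10.52 FPKM (log2 −0.07 [−0.48, 0.34]). *Mup-ps14* had 40 and 29 reads, or 3.91 and 3.75 FPKM (log2 −0.06 [−0.78, 0.65]). The intervals of these 3 span 0, and their signs turned to 0.03, 0.003 and 0.01 when the libraries were scaled to TPM. *Mup-ps13*, the most abundant pseudogene in S1a/Ctrl, had 216 and 104 reads, or 20.6 and 13.1 FPKM (log2 −0.65 [−0.995, −0.304]).

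Other pseudogenes fell like coding members. *Mup-ps2* had 97 and 11 reads, or 9.46 and 1.42 FPKM (log2 −2.65 [−3.61, −1.79]). *Mup-ps12* had 103 and 21 reads, or 9.75 and 2.63 FPKM (log2 −1.85 [−2.57, −1.18]). *Mup-ps19* had 25 and 5 reads (log2 −1.77 [−3.18, −0.48]). The pair most alike in sequence differed in ratio. *Mup-ps2* and *Mup-ps14* were the closest pair among the 7 pseudogenes with at least 20 reads, 97.9% identical with 11 differences, yet their ratios were −2.65 and −0.06. Only 16.8% of the 100-base stretches of *Mup-ps2* and 43.9% of those of *Mup-ps14* are found in no other gene. Their counts may thus include reads from other loci, which the intervals do not cover. The remaining 6 pseudogenes with reads had 1 to 4 reads in S1a/Ctrl and 0 or 1 in S1a/ETP, and 3 of them (*Mup-ps6*, *Mup-ps21* and *Mup-ps27*) are among the 6 counted as lower. The intervals of these 3 span 0, with upper ends at 1.23, 0.72 and 1.42. *Mup-ps21* and *Mup-ps27* passed the filter through S1a/Ctrl alone.

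**Figure D3:**
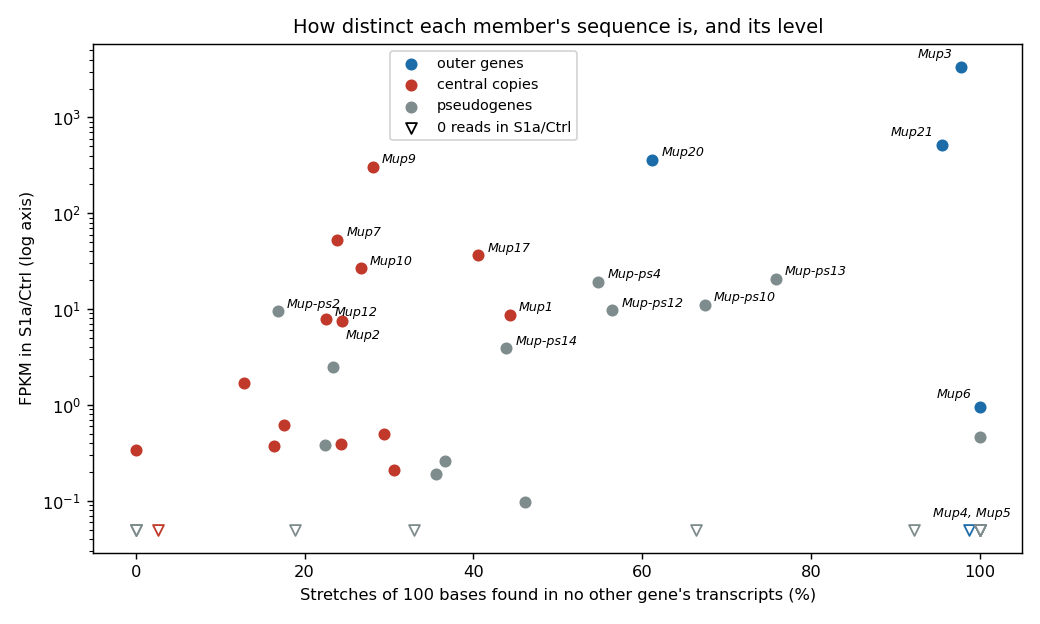
Share of each member's stretches of 100 bases that occur in no other gene's transcripts (horizontal axis, percent) against its FPKM in S1a/Ctrl (log axis), with open triangles at the lower edge for members at 0 reads. Central copies lie between 0% and 44.3%, outer genes at 61.2% or above, and *Mup4* and *Mup5* are distinct in sequence yet at 0.

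Along the chromosome the members form repeated units of a coding gene and a pseudogene. All 15 central copies and 5 of 6 outer genes lie on the minus strand, while 23 of the 29 pseudogenes on chromosome 4 lie on the plus strand. Some pseudogenes differed in ratio from their coding neighbors. *Mup-ps4* lies 15410 bases from *Mup9*, and their ratios were −0.04 and −3.28. *Mup-ps14* lies 12421 bases from *Mup17*, the member with the lowest ratio, and their ratios were −0.06 and −4.40. *Mup-ps2* lies 985 bases from *Mup2* as the table bounds that gene, and both were lower (−2.65 and −1.71). The start of *Mup2* in RefSeq lies 14433 bases inside that bound, so 985 bases is not the distance to that start. The 3 abundant outer genes, *Mup20*, *Mup3* and *Mup21*, are the last members of the cluster, and they differed from each other by more than their counting intervals.

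Genes on either side of the cluster lay within 2-fold. Of the 10 nearest genes that passed the filter on either side, 0 were at least 2-fold lower and 0 higher. Among all genes these shares were 6.25% and 6.42%, so the count alone says little about so short a list. Their median was −0.01 and their range −0.45 to 0.83. The nearest on the *Mup4* side, *Snx30*, which encodes a sorting nexin, had 176 and 182 reads (log2 0.42 [0.14, 0.71]). On the *Mup21* side the nearest, *Zfp37*, which encodes a zinc finger protein, had 15 and 24 reads (log2 0.83 [0.07, 1.55]).

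Of 6 genes inside the cluster that are not members, 4 passed the filter. *Gm12909*, an antisense transcript that begins 946 bases from the 5′ end of *Mup3* on the opposite strand, had 228 and 87 reads, or 19.1 and 9.65 FPKM (log2 −0.98 [−1.35, −0.62]). *Gm13775*, a noncoding transcript 854 bases from the 5′ end of *Mup19*, had 30 and 9 reads (log2 −1.24 [−2.33, −0.21]). Both lay on the same side of 0 as the members. Whether counting used the strand is not given in the sources used here. *Gm21286* had 2 and 0 reads and *Gm12573* 0 and 2, too few for a direction.

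**Figure D4:**
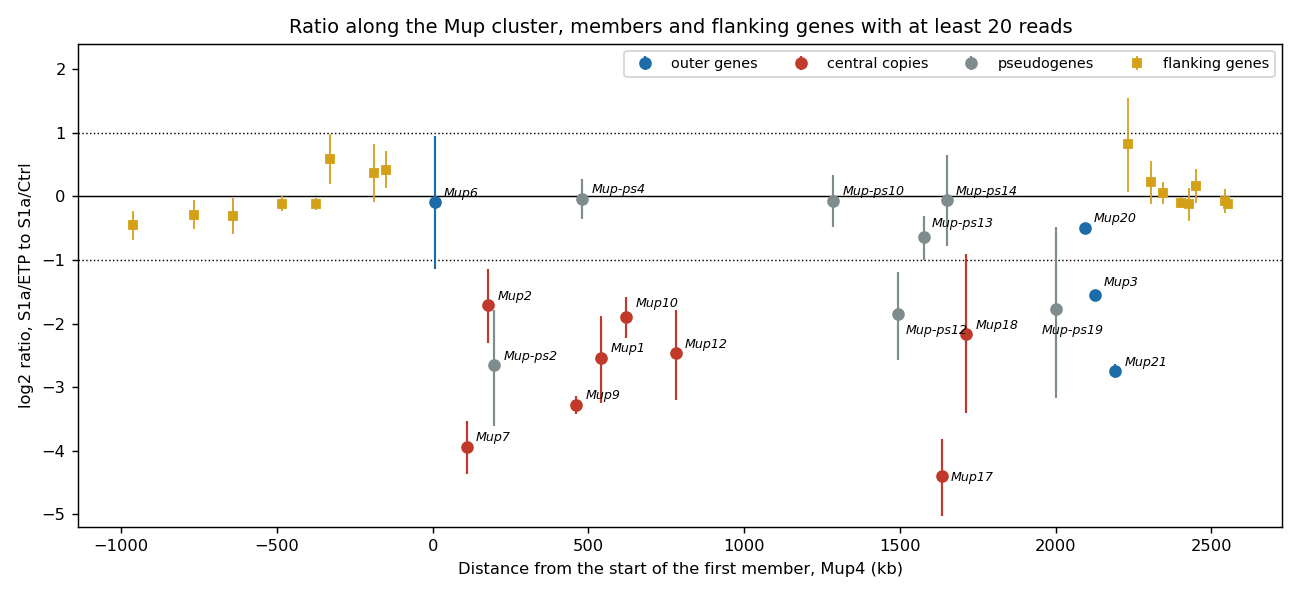
Log2 ratio of S1a/ETP to S1a/Ctrl of members (circles) and flanking genes (squares) with at least 20 reads, against the distance in kb from the start of *Mup4*, with bars for the 95% counting interval and dotted lines at 2-fold. Flanking genes lie between −0.45 and 0.83, while central copies lie between −1.71 and −4.40 and *Mup-ps4*, *Mup-ps10* and *Mup-ps14* lie near 0 among them.

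Promoter sequences were at hand for 14 of the 21 coding members in RefSeq (GRCm38.p6). They are shown because genes with very different levels share the same elements. Each line below is a stretch of 60 bases on the minus strand whose last letters are TATATAA. This variant of the TATA box was chosen after the sequences were seen, and capitals mark it and runs of at least 8 A. The windows are chr4:59960690-59960749 for *Mup4*, chr4:60421977-60422036 for *Mup9*, chr4:60582179-60582238 for *Mup10*, chr4:61595851-61595910 for *Mup17*, chr4:62087322-62087381 for *Mup3* and chr4:62150843-62150902 for *Mup21*. Except in *Mup9*, the last 21 bases also lie within the gene as the table bounds it.
Mup3: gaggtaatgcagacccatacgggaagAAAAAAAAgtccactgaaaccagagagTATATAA
Mup21: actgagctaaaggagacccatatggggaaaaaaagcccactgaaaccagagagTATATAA
Mup9: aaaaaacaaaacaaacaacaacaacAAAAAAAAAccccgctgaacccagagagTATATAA
Mup17: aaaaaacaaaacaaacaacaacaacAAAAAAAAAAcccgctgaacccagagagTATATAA
Mup10: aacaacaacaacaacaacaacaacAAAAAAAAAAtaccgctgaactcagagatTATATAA
Mup4: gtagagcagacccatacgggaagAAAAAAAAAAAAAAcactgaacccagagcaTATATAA

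TATATAA stood in 13 of the 14 member promoters, on either strand of the 300 bases around the start, and in 3.24% of all 32851 promoters. A run of 8 A stood in 12 of 14 and in 7.87% of all. *Mup4*, at 0 reads, has both elements, and *Mup21*, at 518 FPKM in S1a/Ctrl, has the first without the second. *Mup7*, at 52.6 FPKM in S1a/Ctrl and not shown above, has neither in its window, which was 55.1% identical to the nearest other member's. Its bases before the start end with those that begin the matching stretch of *Mup14*. The *Mup7* window thus lies further upstream and may stop before these elements. Whether *Mup7* lacks them, or has a divergent promoter, cannot be told from this window. The promoters of *Mup9* and *Mup19* were 96.1% identical, with 5367 reads for *Mup9* and 6 for *Mup19* in S1a/Ctrl, although 0% of the stretches of *Mup19* could be assigned to it alone. Of the other letters searched on both strands, CCAAT (the CCAAT box) was in 6 of 14 and in 37.4% of all, and TATAAA in 2 of 14 (*Mup4* and *Mup6*) and in 13.6%. TTCNNNGAA (a STAT site), TTGCNNAA (a C/EBP site) and TGTTTAC (a forkhead site) were in 0 of 14, beside 8.30%, 10.8% and 3.65% of all promoters. That says only that these letters are not in this window.

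Other genes known to be higher in male liver under growth hormone were split. Of 14 listed, 5 were at least 2-fold lower and 1 higher, beside 6.25% and 6.42% of all genes, with a median of −0.35. *Obp2a*, a lipocalin known as an odorant-binding protein, had 164 and 0 reads. It was 41.3-fold lower if S1a/ETP is set to the floor of 3 reads, and its interval reached up to log2 −4.69. *Hsd3b5*, a male-specific steroid dehydrogenase, had 446 and 9 reads (log2 −4.90 [−5.73, −4.11]). *Susd4*, which encodes a complement regulator, had 175 and 21 (log2 −2.43 [−3.02, −1.86]), and *Cyp7b1*, the oxysterol hydroxylase, and *Selenbp2*, a selenium-binding protein, are counted among the 5. *Ugt2b38*, a glucuronosyltransferase, was the member of the list that rose, with 7 and 26 reads (log2 1.84 [0.88, 2.72]). The most abundant genes of the list lay within 2-fold, *Gstp1*, a glutathione transferase, at −0.44 [−0.48, −0.40] and *Cyp2d9*, a testosterone hydroxylase, at −0.15 [−0.18, −0.11].

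Female-biased liver genes lay on both sides of 0. Of 15 that passed, 3 were at least 2-fold lower and 0 higher, beside 6.25% and 6.42% of all genes. Of the 15, 10 were below 0 and 5 above, and the median was −0.25. *Hao2*, a hydroxyacid oxidase, had 68 and 8 reads (log2 −2.32 [−3.16, −1.46]), and *Cyp2b13* had 495 and 83 (log2 −2.14 [−2.48, −1.81]). *Fmo2*, a flavin monooxygenase, stood at −1.02 [−1.15, −0.89]. *Cux2*, a repressor of male-biased genes in female liver, had 85 and 28 reads (log2 −0.97 [−1.46, −0.47]). The most abundant were *Cyp2a4*, a steroid hydroxylase, at −0.36 [−0.39, −0.34], and *Cyp17a1*, a steroid hydroxylase and lyase, at 0.54 [0.46, 0.61].

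Of 10 components and targets of growth hormone signaling, 0 were at least 2-fold lower and 0 higher, beside the 6.25% and 6.42% of all genes, so that the count says little about so short a list. Their median was −0.24, with 7 below 0 and 3 above. The STAT5 targets *Socs2*, a feedback inhibitor, and *Igfals*, which encodes the acid-labile subunit that carries IGF1, had the lowest ratios, at −0.84 [−1.17, −0.52] and −0.76 [−0.91, −0.61]. *Cish* stood at −0.60 [−0.99, −0.21], *Igf1* at −0.46 [−0.50, −0.41] and the receptor gene *Ghr* at −0.30 [−0.35, −0.26]. Above 0 were *Socs3*, an inhibitor of cytokine signaling, at 0.37 [0.01, 0.73], the repressor gene *Bcl6* at 0.29 [0.01, 0.57] and *Stat5b* at 0.03 [−0.11, 0.18]. Of 13 hormone receptors and liver transcription factors, 1 was at least 2-fold lower, beside 6.25% of all genes, so that count says little. It was *Onecut1*, with 228 and 83 reads (log2 −1.004 [−1.36, −0.65]), and the median of the list was −0.05. *Thra*, a thyroid hormone receptor, stood at 0.48 [0.20, 0.76], *Cebpa* at −0.06 [−0.11, −0.02] and *Hnf4a* at 0.04 [−0.01, 0.08].

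**Figure D5:**
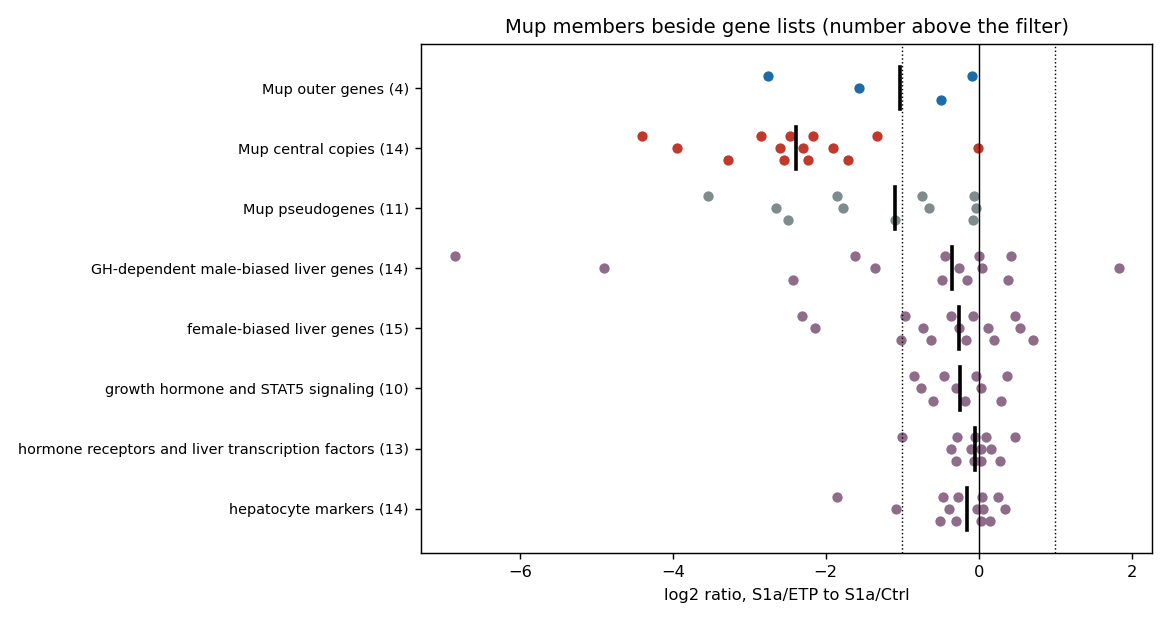
Log2 ratio of S1a/ETP to S1a/Ctrl for each *Mup* member and each listed gene above the filter, by class or list, with black bars at the medians and dotted lines at 2-fold; the male-biased gene farthest left is *Obp2a*, at 0 reads in S1a/ETP. The median of the central copies is −2.39, against −0.35 for other male-biased genes and −0.24 for growth hormone signaling. The central copies *Mup11*, *Mup13*, *Mup14* and *Mup16* passed the filter through S1a/Ctrl alone, so they could only lie below 0.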

How the data were processed

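Liver RNA of both groups was sequenced, 1 library of 3 pooled mice per group. The authors deposited FPKM values with gene IDs, coordinates and lengths. As tools, the submitters' processing notes list edgeR 3.16.5, DESeq2, GATK 4.1, HTSeq 0.6.1, STAR, STAR-Fusion 1.5.0 and StringTie 1.3.3b, with the mm10 build. The authors used edgeR for differential expression. The role of the others, the strand setting and the assignment of reads that fit several copies are not stated in the sources used here.

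Reads were recovered from FPKM, length and depth. The log2 ratio used a pseudocount of 0.1 FPKM, a filter at a mean of 0.1 FPKM and the study's 2-fold size. No p-value was computed, because a single library has no measured spread. Intervals are 95% Clopper-Pearson intervals of the share of a gene's reads that fell in the S1a/ETP library. With the floor of 3 reads, they cover counting error only. Class totals used summed reads.

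Members and gene lists were chosen with earlier results of these data known. Every member could be named, with up to 4 of the largest ratios and the 2 most abundant genes per list, genes inside the cluster and the nearest gene on either side. *Cyp7b1*, *Selenbp2*, *Socs3*, *Bcl6*, *Stat5b*, *Orm1*, *Orm3*, *Lcn8* and *Lcn12* lie outside that rule and were named after their values were seen. Of 134 listed genes, 2 were not matched.

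Of the 51 members, 48 were found by ID in GENCODE M21, all at the same position. Coding and promoter sequences were aligned with MAFFT 7.526. The comparison of coding sequences and of stretches found in no other gene, and the motif TATATAA, were added after the data were seen. Protein sequences were not analysed here. Steps were tested on simulated data. Python 3.11.15, numpy 2.4.6, pandas 2.3.3, scipy 1.17.1 and matplotlib 3.10.9 were used. Results were recomputed with other pseudocounts, filters, thresholds and scalings.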

Additional observations from a re-analysis of the deposited data

How the results depend on the processing

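No paired analysis was possible because each group had 1 library, with no replicate number shared in the labels, and no replicate was there to leave out. Pseudocounts do not enter summed reads. The family's summed log2 ratio of −1.58 became −1.61 when scaled to a median log2 ratio of 0, −1.51 as TPM, −1.55 by an FPKM total that omits the 100 most abundant genes, −1.60 as summed FPKM, −1.41 without the 7 members the study names and −1.65 without *Mup3*, the last chosen after seeing the data. The outer genes' −1.50 became −1.53, −1.43 and −1.47 under the same 3 scalings. As the median of member ratios, outer genes gave −1.02, central copies −2.39 and pseudogenes −1.09, so that outer genes and pseudogenes no longer stood apart as they did by summed reads. The 21 members at least 2-fold lower became 12 with a filter at 1 FPKM, 13 with at least 20 reads and 14 with a pseudocount of 1 FPKM or a 4-fold threshold. The 13 lower central copies became 8 with a pseudocount of 1 FPKM and 7 with a filter at 1 FPKM, and the 6 lower pseudogenes became 3 with that filter. *Onecut1*, the 1 lower receptor or factor, left the count (0) with a pseudocount of 1 FPKM, as TPM and without the 100 most abundant genes. With a pseudocount of 0.01 FPKM, 1 flanking gene passed 2-fold. Counting the 29 members singly, 175 of 191 values under alternatives stayed within the counting interval and 0 members that were 2-fold lower changed sign; 25 of 29 were below 0 as TPM. Few reads limit most members, and only 19 had 20 or more.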

Other observations

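Lipocalins outside the *Mup* cluster did not share 1 direction. Of 13 that passed the filter, 3 were at least 2-fold lower and 3 higher, beside 6.25% and 6.42% of all genes, with a median log2 ratio of −0.09. Among those known from the acute phase the ratios differed. *Lcn2*, a siderophore-binding protein of neutrophils and injured epithelium, had 1686 (S1a/Ctrl) and 9916 (S1a/ETP) reads, or 63.8 and 496 FPKM (log2 2.96 [2.88, 3.03]). *Orm2*, an orosomucoid, had 1379 and 4838 reads (log2 2.21 [2.13, 2.30]). The other orosomucoids lay within 2-fold, *Orm1* at 0.68 [0.65, 0.71] and *Orm3* at −0.16 [−0.44, 0.12]. By FPKM, *Lcn2* in S1a/ETP was above *Mup20* and *Mup21*, and in S1a/Ctrl it was below both. The most abundant lipocalins, the retinol carrier *Rbp4* and *Ambp*, which encodes alpha-1-microglobulin, stood at −0.40 [−0.42, −0.38] and −0.09 [−0.11, −0.07]. On the lower side beside *Obp2a* were *Ptgds*, the prostaglandin D2 synthase, with 24 and 6 reads (log2 −1.34 [−2.43, −0.23]), and *Lcn12*, with 11 and 3. The third on the higher side, *Lcn8*, had 1 and 3 reads. *Orm1*, *Orm3*, *Lcn12* and *Lcn8* lie outside the rule for named genes and were chosen after their values were seen.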
